A study of Homo sapiens with 4 samples.

Results

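The small interfering RNA duplexes siPVT1-1 and siPVT1-2, both aimed at the long noncoding RNA of the PVT1 locus, were compared array against array, to describe what differed between them although both were designed against the same RNA. The comparison used 2 of the 4 arrays of the series, chosen by their labels. All 4 carried RNA from the established liver tumour cell line HepG2, grown with serum and transfected with 1 duplex by the reagent INTERFERin. The duplexes were siPVT1-1, siPVT1-2, a miR-214 mimic and a negative control duplex (NC) that matches no human sequence. Each group held 1 array, so no difference has a replicate check and no test was made. The time between transfection and harvest and the duplex sequences are not given in the sources used here, and no probe was paired with PVT1, so the arrays hold no check of the knockdown.

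An siRNA duplex loads 1 of its strands into an Argonaute protein, which cuts the RNA that the strand fully matches. The same strand can also lower other RNAs through a short stretch at its 5′ end, as a microRNA does, and these effects differ from duplex to duplex. For this reason a pair of duplexes with different sequences is commonly used against 1 target: what they share may follow from the target, and what differs between them may have many sources. PVT1 is transcribed from the region next to MYC.

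The values were 1-colour Cy5 intensities of 28264 probes, quantile-normalized over the 4 arrays, with lower values set to 64, and expressed as log2. Each gene took the value of its brightest probe and was compared when its mean log2 level lay above 9.72, the median of all probes. Median deposited intensities were 835.9 on the siPVT1-1 array, 784.1 on the siPVT1-2 array, 828.1 on the mimic array and 926.9 on the NC array. A difference is the log2 level with siPVT1-1 minus that with siPVT1-2, and higher or lower without a size means at least 2-fold. Most hepatocyte markers were dim. Of 27 hepatocyte markers 25 had a probe, 9 lay above the level filter, and their median stood at percentile 32.9 of all genes by level. Carbamoyl phosphate synthetase (CPS1) stood at percentile 93.4, but albumin (ALB) stood at 13.2, alpha-fetoprotein (AFP) at 27.8, transthyretin (TTR) at 23.3, FGB at 8.89 and APOA2 at 7.17. Some markers of other cell types were bright, the fibroblast genes LUM at percentile 97.9, COL5A1 at 93.9 and DCN at 91.0 and the epithelial genes KRT7 at 96.1 and MUC1 at 91.8. Others in the same lists were dim, with COL3A1 and POSTN at 3.01, COL1A2 at 13.4, VIL1 at 3.01 and KRT5 at 11.1. The median percentile was 41.4 for 12 fibroblast markers with a probe and 55.3 for 12 squamous or other epithelial ones. The arrays are therefore called HepG2 by their labels only. The 9 compared hepatocyte markers had a median difference of 0.10, and marker medians were -0.06 for fibroblasts (5 compared genes), 0.21 for endothelial (3), 0.13 for blood (3) and 0.16 for squamous or other epithelial genes (6). None of these compared markers was 2-fold apart, beside 0.497% of all compared genes. The part of other cell types in the results was not tested.

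The siPVT1 arrays differed little. Of 10667 genes compared, 43 were at least 2-fold lower with siPVT1-1 than with siPVT1-2 (0.403% of genes) and 10 were higher (0.0937%), 53 in all (0.497%). By the same rule 316 genes (2.96%) were apart between siPVT1-1 and NC and 270 (2.53%) between siPVT1-2 and NC. Between siPVT1-1 and the mimic 322 genes (3.02%) were apart, and between siPVT1-2 and the mimic 178 (1.67%). The last 2 counts also share the mimic array, as the others share NC. The median difference was 0.04, and 95% of genes lay between -0.58 and 0.47. The longer tail ran downward with siPVT1-1: 18 genes were at least 3-fold lower (0.169%) and 3 at least 3-fold higher (0.0281%).

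Most of the differing genes were dim. Compared genes were put in 5 equal bins by mean level. The dimmest bin held 21 genes at least 2-fold apart (0.984%), the next 20 (0.938%), the middle bin 6 (0.281%), the fourth 2 (0.0938%) and the brightest 4 (0.187%). On the siPVT1-1 array 17 of the 43 lower genes lay under the filter level, and on the siPVT1-2 array 5 of the 10 higher genes did, so the sizes of these differences are uncertain. With the filter raised to the 75th percentile of probes, 6 lower and 4 higher genes remained. Just inside the 2-fold rule lay HSPA1A (1.01), COPG2 (1.03), HMOX1 (1.04), TOGARAM2 (-1.01), SERPINE2 (-1.04) and ECM1 (-1.06). Just outside lay NPM3 (0.97), LINC00858 (0.98), CAPN9 (0.99), IL17RA (-0.98), WDR64 (-0.99) and RBP3 (-0.997), the last being -1.06 with median centring, -1.05 with cyclic loess and -1.01 with quantile normalization of the siPVT1 arrays alone.

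**Figure D1:**
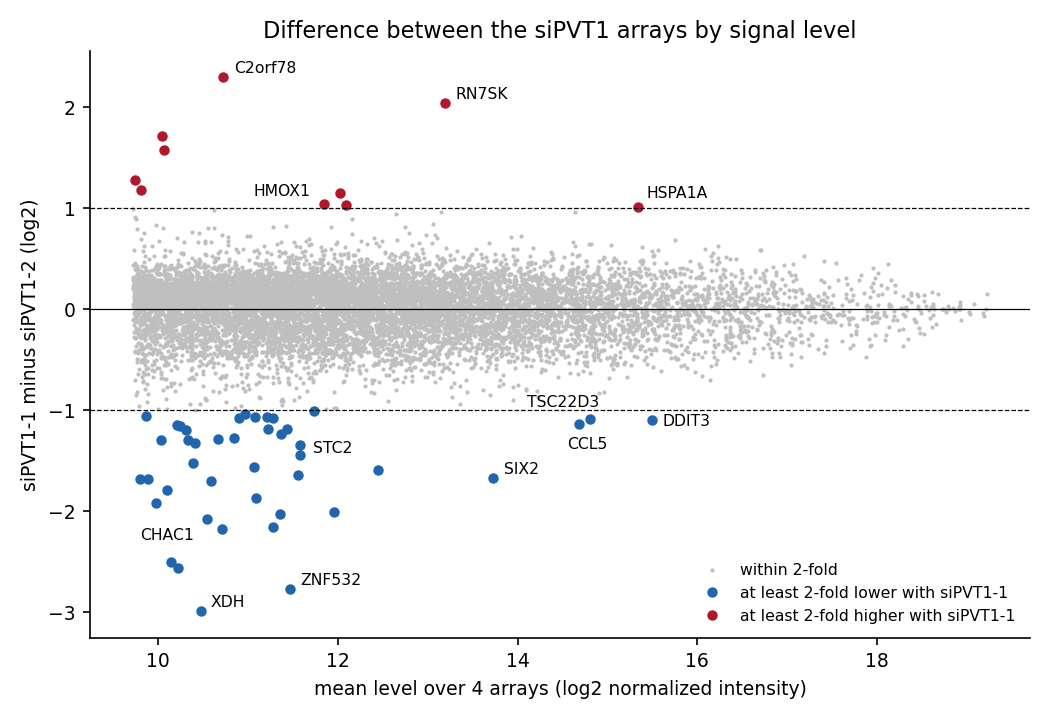
Each point is 1 of 10667 genes, with its mean log2 level over the 4 arrays on the x axis and siPVT1-1 minus siPVT1-2 (log2) on the y axis; dashed lines mark 2-fold. Coloured points are the 43 genes lower (blue) and the 10 genes higher (red) with siPVT1-1, most of them at the dim end, with DDIT3, CCL5, TSC22D3 and HSPA1A among the few at high signal.

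Among the genes lower with siPVT1-1 were 3 of the amino acid stress response: DDIT3, CHAC1 and STC2. Cells short of amino acids, or with unfolded protein in the endoplasmic reticulum, translate the transcription factor ATF4, which raises genes of amino acid supply and, when stress lasts, the factor CHOP, encoded by DDIT3. DDIT3 had a log2 level of 14.19 with siPVT1-1 and 15.29 with siPVT1-2, against 15.94 with the mimic and 16.55 with NC. CHAC1, which breaks down glutathione and is a target of ATF4 and CHOP, had levels of 8.48 with siPVT1-1, 10.56 with siPVT1-2, 10.98 with the mimic and 12.15 with NC. For both genes the order of the 4 arrays was the same, with siPVT1-1 lowest and NC highest. DDIT3 was 2.14-fold lower and CHAC1 4.23-fold lower with siPVT1-1 than with siPVT1-2, and each had only 1 probe. The CHAC1 level with siPVT1-1 lay under the filter level.

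STC2 encodes a secreted glycoprotein that ER stress induces. Its log2 level was 9.99 with siPVT1-1, 11.33 with siPVT1-2, 12.32 with the mimic and 12.69 with NC, a 2.53-fold lower level with siPVT1-1 than with siPVT1-2. A further STC2 probe, under the level filter, gave 8.25, 9.37, 9.52 and 9.95 in that order and a difference of -1.12. The order of the arrays was thus the same by both STC2 probes.

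Over the whole list of 37 amino acid stress genes, 33 were compared, 3 were lower with siPVT1-1 and 0 higher, beside 0.403% and 0.0937% of all genes. The median difference of the list was -0.24, against 0.04 for all genes. Below 0 lay 24 members and above it 9, beside 4690 and 5958 of all 10667 genes. The list median ranged from -0.43 with median centring to -0.22 with the stricter level filter, so its size depended on the scaling and its sign did not. The list was assembled with earlier results of these data known, in which it was low on all treated arrays, so its direction is no independent evidence. Members within 2-fold included the stress-induced cytokine gene GDF15 (-0.63), the leucine sensor SESN2 (-0.77), the transcription factor ATF3 (-0.73), asparagine synthetase (ASNS, -0.58) and the pseudokinase TRIB3 (-0.48; second probe -0.66).

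Other members of the list were nearly level between the duplexes. PHGDH, the entry enzyme of serine synthesis, differed by 0.00, at -1.94 from NC with siPVT1-1 and -1.95 with siPVT1-2. The cystine transporter SLC7A11 differed by 0.04, at -2.12 and -2.16 from NC in that order. ATF4 itself differed by -0.07 (second probe 0.03), with log2 levels of 17.62 with siPVT1-1, 17.69 with siPVT1-2, 17.91 with the mimic and 18.33 with NC. The transporter gene SLC7A5 ran the other way, at 0.51. Cytosolic aminoacyl-tRNA synthetases, which charge tRNAs and are in part ATF4 targets, had a median of -0.10 over 19 genes with none 2-fold apart; RARS1 stood at -0.67 (second probe -0.56) and NARS1 at -0.63. Of 23 compared ER chaperone and unfolded protein genes none was 2-fold apart, and their median was -0.01. Of 18 compared p53 targets none was 2-fold apart and the median was 0.01, with GADD45A lowest at -0.80. Of all genes 0.497% were 2-fold apart, so lists of this size with no such member show little.

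**Figure D2:**
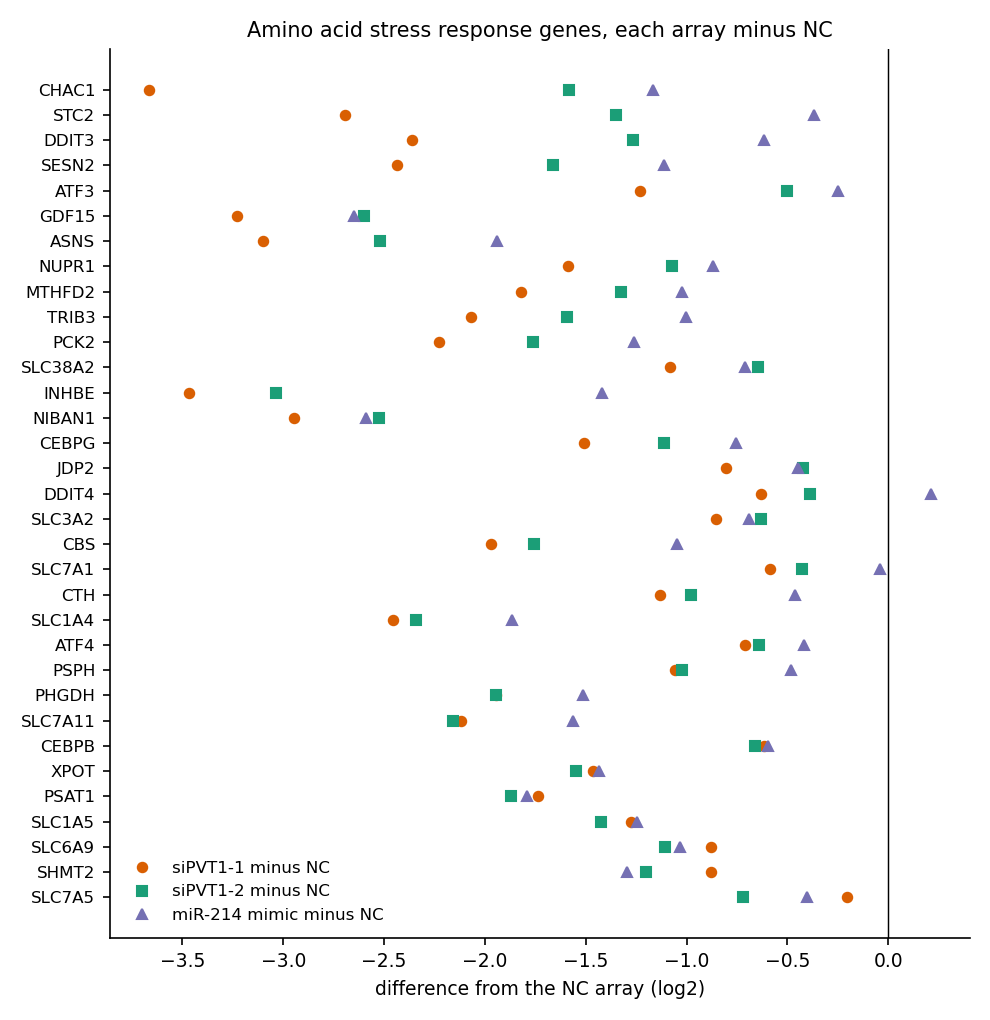
Rows are the 33 compared amino acid stress genes, ordered by siPVT1-1 minus siPVT1-2, and the x axis gives each treated array minus NC (log2): circles siPVT1-1, squares siPVT1-2, triangles the mimic. At the top, CHAC1, STC2 and DDIT3 lie lower with siPVT1-1 than with siPVT1-2 by 2.08, 1.34 and 1.10. Further down the circles and squares come together, and in the lowest rows the circle lies to the right, by 0.51 for SLC7A5. All 3 series share the NC array.

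The promoters of 2 of these genes and of the heat shock gene HSPA1A, described next, are shown because stress elements of known sequence were searched in them. They are RefSeq sequences on GRCh38.p14, 250 bases before to 50 after the start site, of CHAC1 (chr15:40953221-40953520, plus strand), DDIT3 (chr12:57520465-57520764, minus strand) and HSPA1A (chr6:31815293-31815592, plus strand). Capitals mark TTGCATCA, the element bound by C/EBP and ATF factors, in the first pair, and GAANNTTC, the core of the heat shock element, in HSPA1A.
CHAC1: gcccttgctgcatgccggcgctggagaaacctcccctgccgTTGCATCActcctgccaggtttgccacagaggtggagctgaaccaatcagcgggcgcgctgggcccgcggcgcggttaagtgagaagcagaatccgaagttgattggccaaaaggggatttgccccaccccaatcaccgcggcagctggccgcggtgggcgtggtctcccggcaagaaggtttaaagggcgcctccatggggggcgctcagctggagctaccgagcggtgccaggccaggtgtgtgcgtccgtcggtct
DDIT3: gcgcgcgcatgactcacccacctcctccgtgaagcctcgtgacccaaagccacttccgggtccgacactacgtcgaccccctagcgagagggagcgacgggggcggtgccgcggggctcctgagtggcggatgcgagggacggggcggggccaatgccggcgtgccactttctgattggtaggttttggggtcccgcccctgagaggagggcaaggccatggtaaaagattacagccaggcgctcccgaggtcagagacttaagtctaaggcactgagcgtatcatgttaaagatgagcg
HSPA1A: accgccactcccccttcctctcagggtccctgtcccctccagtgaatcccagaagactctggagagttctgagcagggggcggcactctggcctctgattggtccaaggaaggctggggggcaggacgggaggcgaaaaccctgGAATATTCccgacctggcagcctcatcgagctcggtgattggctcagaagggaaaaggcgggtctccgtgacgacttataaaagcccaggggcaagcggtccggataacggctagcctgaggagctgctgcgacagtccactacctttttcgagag
Both strands were searched. The CHAC1 promoter held 1 match to TTGCATCA, at position -209 from the start site, and the HSPA1A promoter 1 match to GAANNTTC, at position -106. The DDIT3 window held no TTGCATCA, and sequence more than 250 bases before the start site was not searched. Of 35097 RefSeq promoters, 0.866% held TTGCATCA, 6.77% held GAANNTTC and 13.3% held TGACNNNGC, the core of the antioxidant response element. Of the 53 genes apart, 38 had a promoter in the table, and CHAC1 was the 1 with TTGCATCA; GAANNTTC was found in HSPA1A, ECM1 and GLIS1. TGACNNNGC was found in 9 of the 38, among them STC2, TSC22D3 and XDH; of the NRF2 genes that were 2-fold apart (HMOX1, GCLC and AKR1B10), GCLC alone had a promoter in the table, without this motif. The percentages count promoters, of which a gene can have several, whereas the counts among the 38 genes take any promoter of a gene. These figures are therefore not on the same unit and were not compared. A match is a description of the letters only.

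HSPA1A, the inducible cytosolic chaperone HSP70, was higher with siPVT1-1. Its log2 level was 16.34 with siPVT1-1 and 15.32 with siPVT1-2, against 14.55 with the mimic and 15.16 with NC, which put siPVT1-1 apart from the other arrays. HSPA1B, a near-identical copy whose transcripts may share signal with HSPA1A, stood at 12.91, 12.01, 11.78 and 11.91 in that order, a difference of 0.90. HSPA1A was 2.02-fold higher with siPVT1-1, but its difference was 0.98 with median centring, under 2-fold. Of 17 compared cytosolic heat shock genes HSPA1A was the 1 that was higher and none was lower, beside 0.0937% and 0.403% of all genes. The list median was 0.03. HSP90AA1 stood at 0.50 (second probe 0.26), while HSPH1 stood at -0.42 (second probe -0.05).

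Antioxidant genes under the factor NRF2 differed in both directions. HMOX1, which degrades heme, had log2 levels of 12.56 with siPVT1-1, 11.52 with siPVT1-2, 11.34 with the mimic and 11.97 with NC. GCLC, the catalytic subunit of glutamate-cysteine ligase, had 9.55, 11.08, 10.58 and 10.32, and the aldo-keto reductase AKR1B10 had 9.98, 11.31, 10.28 and 10.06. With siPVT1-1, HMOX1 was thus highest of the 4 arrays, while GCLC and AKR1B10 were lowest. For AKR1B10 the siPVT1-2 array was the one that stood apart. HMOX1 was 2.05-fold higher with siPVT1-1 (0.97 with median centring), GCLC 2.88-fold lower and AKR1B10 2.51-fold lower, each by a single probe. GCLM, the partner subunit of GCLC, stood at 0.81, opposite in sign to GCLC. Of 20 compared NRF2 and glutathione genes 2 were lower and 1 higher, beside 0.403% and 0.0937% of all genes, and the median was 0.02. BACH1, the heme-responsive repressor of HMOX1, stood at -0.68 by each of its probes.

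RN7SK, the 7SK RNA that holds the elongation factor P-TEFb inactive, had the highest difference among genes above the filter level on all 4 arrays. Its log2 level was 14.52 with siPVT1-1 and 12.49 with siPVT1-2, against 12.83 with the mimic and 12.91 with NC. The siPVT1-1 array was thus 4.10-fold above siPVT1-2 and apart from the other 3, which lay within 2-fold of each other. The gene had 1 probe. C2orf78 was further apart, 4.90-fold higher with siPVT1-1, with levels of 10.75 with siPVT1-1, 8.46 with siPVT1-2, 10.81 with the mimic and 12.87 with NC, but its siPVT1-2 spot lay under the filter level. The chemokine receptor gene CCR6 was 3.29-fold higher, LGI3 2.99-fold, the neuronal adhesion gene NEGR1 2.43-fold and the homeobox gene PBX2 2.27-fold. In each of these 4 the siPVT1-2 spot also lay under the filter level. Further CCR6 probes, which were dim, gave 0.31 and 0.00. ASB16 (1.15) and the coatomer subunit gene COPG2 (1.03) made up the 10.

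CCL5, a chemokine that attracts T cells, was the 1 gene 2-fold apart for which a second probe past the level filter pointed the same way. By its brightest probe its log2 level was 14.20 with siPVT1-1, 15.34 with siPVT1-2, 14.51 with the mimic and 14.71 with NC. By its second probe it was 13.51, 14.49, 13.69 and 13.73. Both probes placed siPVT1-2 highest and siPVT1-1 lowest, with differences of -1.14 and -0.98. Other chemokine genes stayed within 2-fold and ran both ways: CCL2 stood at -0.94 (a further, dim probe -1.14) and CXCL2 at -0.87, while CXCL1 stood at 0.20, CXCL8 at 0.17 and CXCL3 at 0.06. The list of 17 compared NF-kB, cytokine and acute phase genes, which holds these 5, had a median of 0.06 with none 2-fold apart. CCL5 was the 1 of 20 compared interferon response and RNA sensing genes that was 2-fold apart, beside 0.497% of all genes. That list's median was -0.11, and its members ran both ways, with IFIT3 at -0.67, IRF1 at -0.61, ISG20 at 0.53 and IFI6 at 0.67. The antiviral response gene IFI6 gave 0.81 by its second probe.

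Other bright genes lower with siPVT1-1 were TSC22D3, encoding the leucine zipper protein GILZ that glucocorticoids induce, and the homeobox gene SIX2. TSC22D3 had log2 levels of 13.76 with siPVT1-1, 14.85 with siPVT1-2, 14.88 with the mimic and 15.71 with NC, so siPVT1-1 lay lowest and apart from the other arrays. SIX2 had 13.10, 14.77, 13.20 and 13.83, so siPVT1-2 was highest and siPVT1-1 was close to the mimic. The differences were 2.13-fold and 3.19-fold, each from 1 probe. The MAP kinase phosphatase gene DUSP4 was 2.10-fold lower by its brightest probe, while a further, dim probe gave 0.29.

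The largest differences were at dim to moderate signal. XDH, the enzyme that makes uric acid, had log2 levels of 8.93 with siPVT1-1, 11.92 with siPVT1-2, 10.38 with the mimic and 10.65 with NC. The zinc finger gene ZNF532 had 9.92, 12.69, 11.36 and 11.88, and the muscle regulator MYOG had 8.78, 11.34, 10.61 and 10.15. In all 3 genes siPVT1-1 was lowest and siPVT1-2 highest, with the mimic and NC between them. With siPVT1-1 they were lower by 7.94-fold, 6.82-fold and 5.90-fold by their brightest probes. A second XDH probe above the filter gave 0.19, and a dim further ZNF532 probe gave -0.38. MYOG had 1 probe.

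Below these in rank, C6orf15 was 5.69-fold lower with siPVT1-1, the phagocytosis bridging protein MFGE8 4.51-fold, the muscle membrane protein SGCA 4.46-fold, the retinal protein RTBDN 4.09-fold and FSD2 4.03-fold. The peptide receptor VIPR1 (3.79-fold), the vascular adhesion molecule MADCAM1 (3.64-fold), the neuronal factor NHLH2 (3.46-fold), ZNF621 (3.26-fold), the sialyltransferase ST6GALNAC2 (3.22-fold) and RASAL3 (3.20-fold) followed. With CHAC1 these were the 15 lowest genes. Other ZNF621 probes above the filter gave 0.13 and 0.12, and a dim further NHLH2 probe gave -0.22. Spots under the filter level on the siPVT1-1 array set the values of XDH, MYOG, C6orf15, MFGE8, CHAC1, VIPR1, NHLH2, ST6GALNAC2 and RASAL3.

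**Figure D3:**
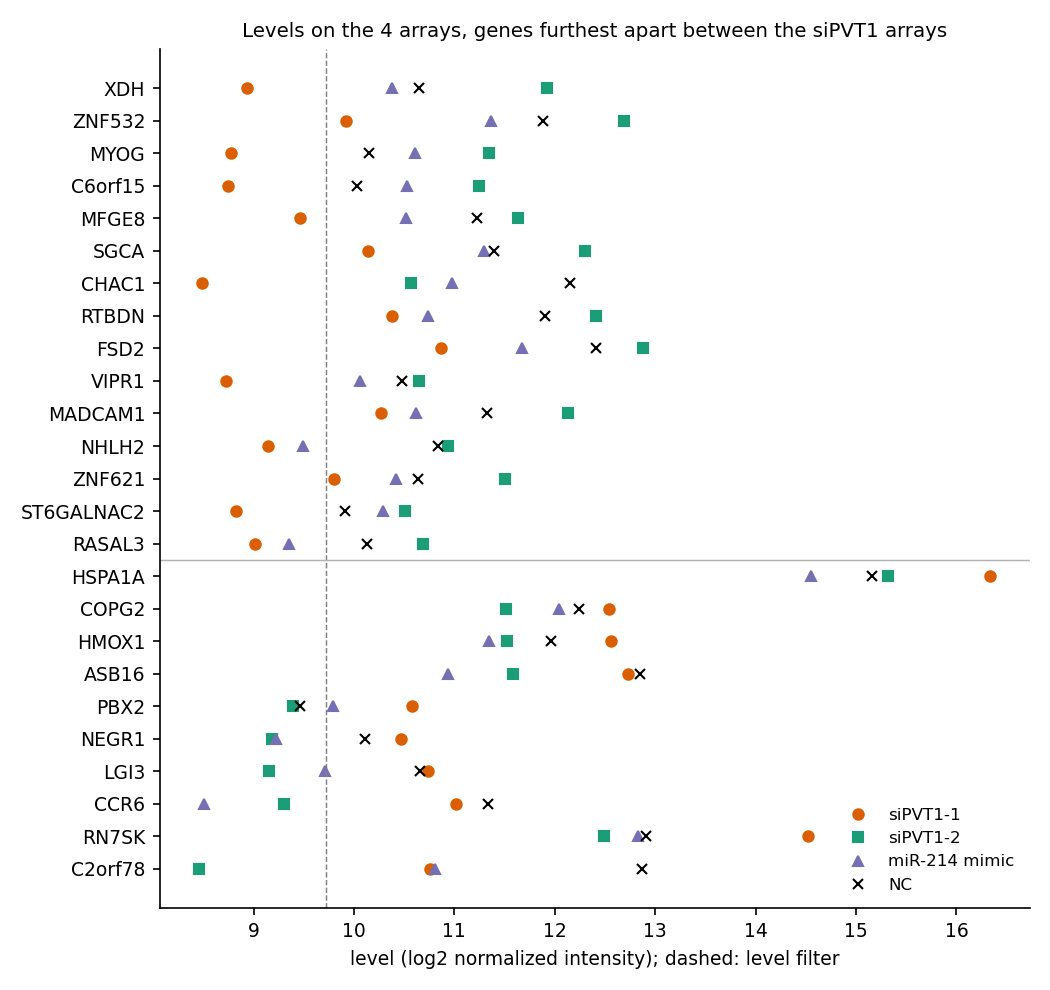
Rows are the 15 genes lowest with siPVT1-1 (above the line) and the 10 genes higher with siPVT1-1 (below it), and the x axis is the log2 normalized intensity on each array: circles siPVT1-1, squares siPVT1-2, triangles the mimic, crosses NC. In most upper rows the circle is lowest and the square highest with the other arrays between them; in the RN7SK and HSPA1A rows the circle alone lies to the right.

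The mimic and NC arrays were set beside the siPVT1 arrays to see which array lay at an extreme. The siPVT1-1 array was the lowest of 4 for 35 of the 43 lower genes, the siPVT1-2 array was the highest for 33, and both held for 25. Of the 10 higher genes siPVT1-1 was the highest of 4 for 7, and siPVT1-2 was the lowest for 6. The rule that picked the genes already favours the siPVT1 arrays as extremes, so these counts only describe the genes picked. An array was taken to stand apart when it lay at least 2-fold from each of the other 3 and these lay within 2-fold of each other. By this rule siPVT1-1 stood apart for 9 genes, siPVT1-2 for 5, and 39 were mixed. The 9 were VIPR1, ST6GALNAC2, RGSL1, KRTAP21-3, TPSAB1, TSC22D3 and SERPINE2, lower, and HSPA1A and RN7SK, higher. The 5 were AKR1B10, HRH3, SLC27A1, CES5A and TOGARAM2, all highest with siPVT1-2. Of all 53 genes, 28 were at least 2-fold from NC with siPVT1-1 (2.96% of all genes were), 17 with siPVT1-2 (2.53% were) and 8 with both, while 16 passed 2-fold from NC with neither. The 53 were picked by these same siPVT1 values, which by itself raises their shares above those of all genes.

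Few of the genes could be checked by a second probe. Of the 53 genes, 38 had a single probe on the array. A second probe above the level filter was present for 3 of the 53, beside 2214 of all 10667 compared genes. Among the 3, the second probe gave -0.98 for CCL5, but 0.19 for XDH, whose brightest probe gave -2.99. It gave 0.13 for ZNF621, whose brightest probe gave -1.71. A further ZNF621 probe gave 0.12. So 1 of 3 had the sign of the brightest probe and 0 of 3 reached 2-fold. Among further probes under the filter, STC2 (-1.12) and CES5A (-1.19) had differences near those of their brightest probes, -1.34 and -1.19; another CES5A probe, at the floor with siPVT1-1, gave -0.15. ZNF532 (-0.38), NHLH2 (-0.22), TWSG1 (-0.19) and CSGALNACT2 (-0.40) had the sign but a smaller size. NTN1 (0.07), HRH3 (0.06), DUSP4 (0.29) and SERPINE2 (0.25) had the opposite sign.

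At a lower threshold more genes could be checked. With 1.5-fold in place of 2-fold, 251 genes were lower and 103 higher with siPVT1-1 (2.35% and 0.966%, 3.32% in all), and 64 of them had a second probe above the filter. Of these second probes 44 had the sign of the brightest probe, 10 were also at least 1.5-fold apart the same way (15.6%) and 0 were 1.5-fold apart the opposite way. Of all 2214 second probes above the filter, 4.65% were at least 1.5-fold apart in either direction, and 58.9% had the sign of the brightest probe. Across these 2214 genes the differences of both probes correlated at r = 0.23 (Spearman 0.25). Genes are not independent replicates, and both probes of a gene read the same RNA on the same arrays.

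**Figure D4:**
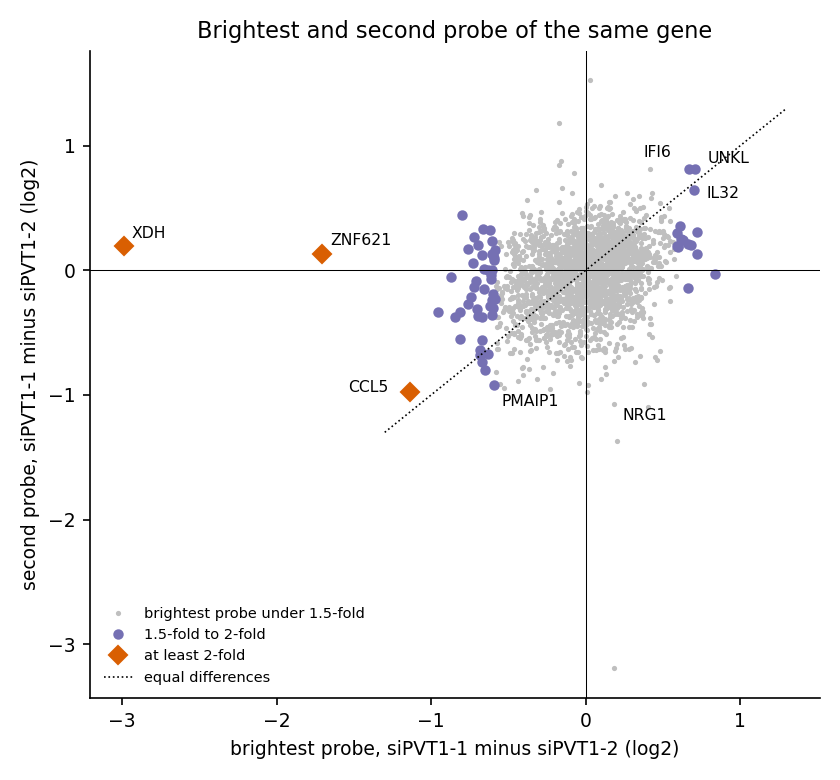
Each point is 1 of 2214 genes with a second probe above the level filter; the x axis is siPVT1-1 minus siPVT1-2 (log2) by the brightest probe and the y axis the same by the second probe. CCL5 lies near the line of equal differences, XDH and ZNF621 lie near 0 on the y axis, and NRG1 lies near 0 on the x axis and at -1.07 on the y axis.

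The 10 genes with both probes at least 1.5-fold apart, named after their values were seen, were CCL5, PMAIP1, PDP1, SERPINI1, BACH1, RACGAP1 and LPGAT1, lower with siPVT1-1, and UNKL, IFI6 and IL32, higher. PMAIP1, encoding the pro-apoptotic protein NOXA, had log2 levels of 13.02 with siPVT1-1, 13.61 with siPVT1-2, 13.97 with the mimic and 14.43 with NC, and 11.17, 12.09, 12.48 and 12.68 by its second probe. Its array order was that of DDIT3 and CHAC1, by both probes. PDP1, a phosphatase that activates pyruvate dehydrogenase, gave -0.65 and -0.80, the protease inhibitor SERPINI1 -0.67 and -0.73, and RACGAP1, a regulator of cytokinesis, -0.69 and -0.64. LPGAT1, a phospholipid acyltransferase, gave -0.63 and -0.67, but a further probe above the filter gave 0.15. Of the higher genes, UNKL gave 0.71 and 0.81, IFI6 0.67 and 0.81, and the cytokine gene IL32 0.70 and 0.65. For IFI6, IL32 and UNKL siPVT1-1 was the highest array by both probes.

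NRG1, which encodes the ERBB ligand neuregulin 1, differed by probes other than its brightest. It had 5 probes above the level filter. The brightest gave log2 levels of 11.48 with siPVT1-1, 11.29 with siPVT1-2, 11.60 with the mimic and 11.68 with NC, a difference of 0.18. The next gave 10.41, 11.48, 11.51 and 10.61, and another 10.00, 11.15, 11.46 and 10.44. By these and the remaining pair the differences were -1.07, -1.15, -0.62 and -0.70. In all 4 the siPVT1-1 array lay beside NC and the siPVT1-2 array beside the mimic. The brightest-probe rule leaves NRG1 out of the counts of genes 2-fold or 1.5-fold apart. It is among the 2214 genes with a second probe above the filter.

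Of the 53 genes apart, 11 belonged to any of the 34 lists, out of 1108 compared list genes (0.993%, beside 0.497% of all genes), and 6 lists held such a member. Outside the amino acid stress list 8 of 1075 were apart (0.744%). These shares were not tested. List medians lay between -0.24 for the amino acid stress genes and 0.21 for 3 endothelial markers, against 0.04 for all genes. None of 31 DNA replication genes (median -0.03), 30 mitosis genes (0.00), 28 MYC-driven ribosome biogenesis genes (-0.03), 24 cholesterol and fatty acid synthesis genes (-0.09) or 30 glycolysis and hypoxia genes (-0.05) was 2-fold apart. The small RNA machinery, through which both duplexes act, had 16 compared genes, none 2-fold apart, and a median of 0.10. Its member TARBP2, a partner of Dicer, gave 0.43 by its brightest and -0.43 by its second probe. Also none of 79 cytosolic ribosomal protein genes (0.02), 76 mitochondrial ones (0.06) or 95 respiratory chain and ATP synthase genes (0.06) was 2-fold apart. In the olfactory and taste receptor list, 90 of 113 compared genes lay above 0, beside 55.9% of all genes, and none was 2-fold apart. The median of this list was 0.18 and ranged from 0.12 to 0.21 over the alternatives. Of 211 compared zinc finger genes 2 were lower, ZNF532 and ZNF621 (all genes, 0.403%), and the median was 0.07; the other ZNF621 probes gave 0.13 and 0.12. The dimmest bin of all genes, where signal is also low, had a median of 0.08.

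**Figure D5:**
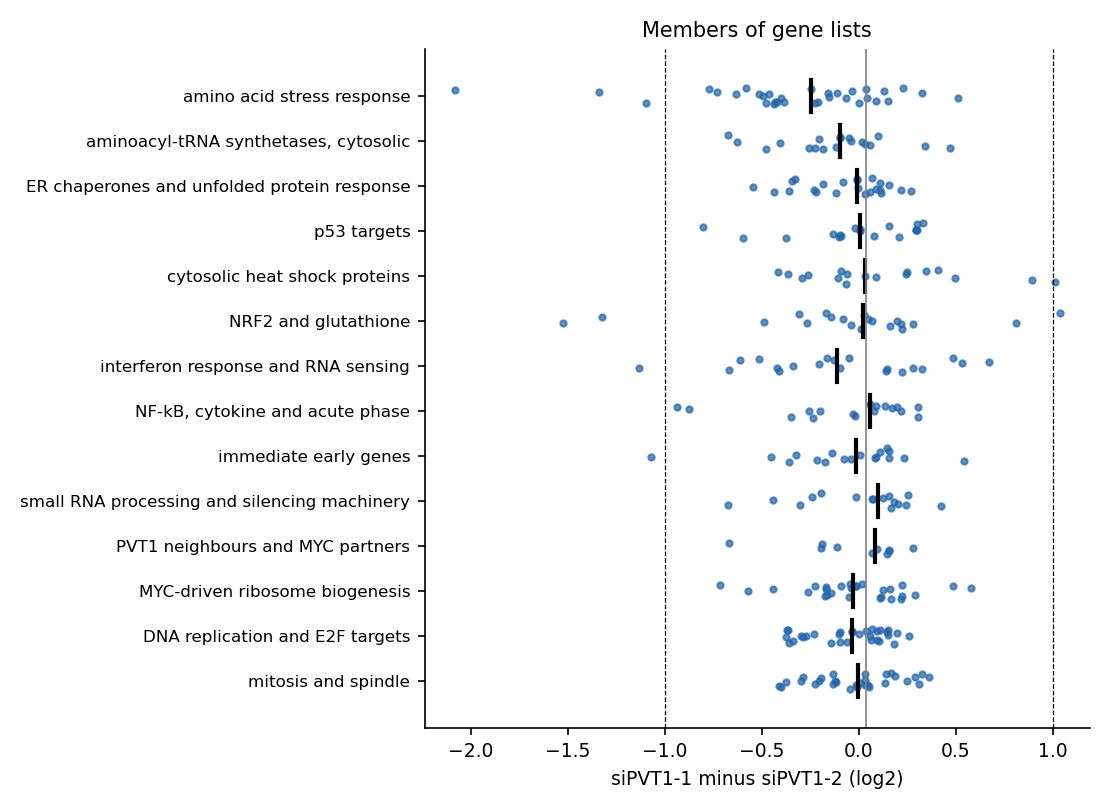
Each point is a compared member of the list named at the left, for 14 of the 34 lists, with siPVT1-1 minus siPVT1-2 (log2) on the x axis, a bar at the list median, a grey line at the median of all genes (0.04) and dashed lines at 2-fold. Only CHAC1, STC2, DDIT3, GCLC, AKR1B10, CCL5, DUSP4, HSPA1A and HMOX1 lie beyond the dashed lines, and the amino acid stress list has the lowest median.

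Around PVT1 itself, MYC had log2 levels of 13.50 with siPVT1-1, 13.69 with siPVT1-2, 14.03 with the mimic and 13.37 with NC, a difference of -0.19. CYRIB had 14.11, 14.78, 14.67 and 14.22, a difference of -0.67 that its second probe gave as -0.38. For CYRIB siPVT1-1 lay beside NC and siPVT1-2 beside the mimic by both probes. None of the 10 compared PVT1 neighbours and MYC partners was 2-fold apart, beside 0.497% of all genes. Their median was 0.08 (-0.19 with the stricter level filter, -0.03 with probes averaged).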

How the data were processed

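RNA from 4 transfections was amplified, labelled with Cy5 and hybridised to OneArray Plus chips, per the labels' protocols. Intensities were deposited on a linear scale, and values below 0 show that background had been taken off (129, 74, 101 and 131 of 28264 probes on the siPVT1-1, siPVT1-2, mimic and NC arrays); no source used here names the software. They were quantile-normalized over the 4 arrays (limma 3.58.1, R 4.3.3), floored at 64 and taken to log2. A single gene symbol was paired with 25893 probes, several with 0 and none with 2371; symbols were updated by Entrez identifier to RefSeq and covered 19090 genes. Of 10668 genes above the filter, 1 was at the floor on a siPVT1 array and was not counted. With 1 array per group, genes were counted by size only. The second probe is the brightest further probe above the filter. The counting was tested on simulated data. Named genes were the 15 lowest and the 10 higher genes, genes apart with a second probe, up to 3 members per list, MYC, CYRIB and those nearest the threshold; others were named after their values were seen. Members and lists were chosen with earlier results of these data known. Alternatives were 4 other scalings (as deposited, median centring, cyclic loess, quantile normalization of the siPVT1 arrays alone), floors of 16 and 256, the level filter left out or raised to the 75th percentile, probes averaged per gene, and 1.5-fold and 3-fold rules. Signal over background and the single arrays limit the precision.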

Additional observations from a re-analysis of the deposited data

Results flagged for a closer look

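By the brightest probe 3 genes lay at least 2-fold from NC in opposite directions with siPVT1-1 and siPVT1-2, lower with siPVT1-1 and higher with siPVT1-2, and this difference was not tested. XDH stood at -1.72 from NC with siPVT1-1 and 1.27 with siPVT1-2 (log2), a difference of -2.99. MYOG stood at -1.37 with siPVT1-1 and 1.19 with siPVT1-2, a difference of -2.56. C6orf15 stood at -1.29 and 1.22, a difference of -2.51. All 3 were under the filter level on the siPVT1-1 array. The second XDH probe gave 0.19 between the duplexes; MYOG and C6orf15 have 1 probe each.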

How the results depend on the processing

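With 1 array per group no replicate could be left out. No paired analysis was possible because each group held 1 array. The count of genes 2-fold apart was 54 with values as deposited, 60 with median centring, 62 with cyclic loess and 55 with quantile normalization of the siPVT1 arrays alone, and these shared 52, 50, 53 and 53 of the 53 genes. All 4 scalings kept 42 of 43 lower and 7 of 10 higher genes; TOGARAM2 was -0.99 as deposited, and HSPA1A (0.98), HMOX1 (0.97) and COPG2 (0.96) fell short with median centring. Both floors left every count as it was. Without a level filter 57 genes were higher and 146 lower, siPVT1-1 stood apart for 29, siPVT1-2 for 18 and 156 were mixed; 43 had a second probe, 18 with the same sign and 2 also 2-fold apart. With the filter at the 75th percentile 4 were higher and 6 lower, with 3, 0 and 7 in that order and 1 second probe. The 1.5-fold rule gave 103 higher and 251 lower, with 65, 16 and 273, and 64 second probes, 44 with the same sign and 10 also past the rule. The 3-fold rule gave 3 higher and 18 lower, with 2, 0 and 19, and 0 second probes with the same sign. With median centring siPVT1-2 stood apart for 8 genes, 2 second probes had the same sign and 1 was 2-fold apart; cyclic loess gave 1 such probe. With probes averaged siPVT1-2 stood apart for 3 genes, ZNF621 was at -0.48 and DUSP4 at -0.39. Averaging also put CCL2 at -1.04. Of the values of single named genes under the alternatives, 1082 stayed on their side of 2-fold, 13 newly passed and 6 fell short. None changed sign where the gene had been 2-fold apart. The 1082 include 131 values for each floor, 131 without a level filter and 67 with the stricter filter. These could not move, because the named genes lay above both floors and a filter leaves a gene's difference as it is. Named genes that the stricter filter dropped were not counted. Low signal limits the dim genes most. The causes of these shifts were not tested beyond what each setting changes by construction.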

Other observations

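The platform table paired 2371 probes with no gene here. Of these 1003 lay above the filter, and 10 were lower and 4 higher with siPVT1-1 (1.4% of probes). Among named genes, each counted by its brightest probe, 0.497% were apart. These shares are on different units, and their difference was not tested. Probe PH_hs_0027487 gave the largest difference of all probes above the filter, -4.09, with log2 levels of 11.27 with siPVT1-1, 15.36 with siPVT1-2, 10.97 with the mimic and 11.28 with NC, so siPVT1-2 alone was high. Probe PH_hs_0063042 gave 1.74, with 14.25 on the siPVT1-2 array, 15.51 on the mimic array and 15.94 on the NC array, so there siPVT1-2 alone was low.

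Some genes differed by their second probe while the brightest did not. IL36RN, an antagonist of interleukin 36 signalling, gave 0.19 by its brightest probe and -3.19 by its second, MRPS18B gave 0.03 and 1.53, and the orphan nuclear receptor gene NR4A3 gave 0.41 and -1.10. IKBIP gave 0.06 by its brightest of 3 probes and -0.64 and -0.59 by the others.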
